A study of Mus musculus with 6 samples.

Results

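Cadherins are calcium-dependent adhesion proteins, and the genes described here are 10 members of the classical (type I) and type II groups: Cdh1, Cdh2, Cdh3, Cdh4, Cdh6, Cdh8, Cdh10, Cdh11, Cdh13 and Cdh19. They were taken by symbol from a table of 45703 mouse genes, and all 10 symbols were found. Cdh13 carries the same extracellular repeats but is held in the membrane by a lipid anchor, so it is given apart from the 2 groups. The table came from poly-A RNA sequencing of 6 primary cultures from dorsal root ganglia (DRG), where the somata of sensory neurons lie among satellite glia and Schwann cells. The donors were wild-type C57BL/6 mice of 4 to 6 weeks. Ganglia were digested with Liberase enzymes, and RNA was taken after 7 days from 2 poly-L-lysine dishes per sample. The medium held 10% fetal calf serum with EGF and FGF at 10 ng/ml, and all 6 cultures had this one treatment. The study has therefore 1 group and no control group, and the comparisons below are between genes within a culture and between cultures. The series text calls the 6 cultures biological replicates, but the labels do not say whether they came from separate animals, so the p-values measure the spread between these samples. No batch or date is given in the labels.

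The extracellular repeats of a cadherin bind cadherins on the neighbouring cell, with a preference for the same or a closely related kind. The tail inside the cell binds beta-catenin and delta-catenins, and alpha-catenin joins this complex to actin in the adherens junction. Cells of different types tend to sort by which cadherins they carry and how much of each. In the peripheral nervous system N-cadherin (Cdh2) and Cdh19 are known from the Schwann cell lineage, E-cadherin (Cdh1) from the junctions that a myelinating Schwann cell makes with itself, and Cdh11 from mesenchyme.

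Each library held 20070639 to 22968642 estimated counts. Levels are given as counts per 1000000 of the library total (CPM), and per kilobase of combined exon length (CPM per kb) wherever one gene is set against another. A floor of 3 counts corresponded to 0.131 to 0.150 CPM. Glial lineage markers (7 genes such as Sox10 and Erbb3, without Cdh19) summed to 4577 to 6631 CPM and neuron markers (8 genes) to 887.3 to 1850 CPM, so RNA of glia and of neurons was measured in every culture. Fibroblast markers (7 genes such as Col3a1 and Pdgfra) summed to 3339 CPM in replicate 1 and to 13977 CPM in replicate 5. Replicate 5 also had the highest level of all 7 endothelial markers and of 4 of 6 mural and 4 of 7 macrophage markers. Of 14998 genes kept by a low-count filter, replicate 5 held the highest value for 29.2% and the lowest for 26.2%. In such bulk RNA, fewer cells of a type and less RNA per cell cannot be told apart.

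Cdh19 had the highest level of the 10 genes, followed by Cdh2 and Cdh11. Cdh19 (gene ID 227485; GRCm38.p6 chromosome 1, 110888002 to 110977601, minus strand), a type II cadherin of the Schwann cell lineage, stood at 166 ± 21.6 CPM per kb (SD, n = 6). Cdh2 (gene ID 12558; chromosome 18, 16588877 to 16809246, minus strand), the neural type I cadherin, stood at 38.5 ± 5.36 CPM per kb. Cdh11 (gene ID 12552; chromosome 8, 102632095 to 102785493, minus strand), a type II cadherin of mesenchyme and bone-forming cells, had a level of 29.1 ± 20.1 CPM per kb. These 3 genes made up 94.3% ± 0.503 of the summed CPM per kb of the 10 members, with a range over cultures of 93.9% to 95.1%. Their joint share was thus nearly the same in every culture, although the parts of Cdh19 and Cdh11 differed widely. The part of Cdh2 ran from 13.1% to 18.5%.

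A middle group of 3 genes followed. Cdh6 (gene ID 12563; chromosome 15, 13028699 to 13176407, minus strand), a type II cadherin known from kidney and neural crest, had 5.38 ± 0.687 CPM per kb. Cdh1 (gene ID 12550; chromosome 8, 106603350 to 106670247, plus strand), the epithelial type I cadherin, had 4.68 ± 1.49 CPM per kb. Cdh10 (gene ID 320873; chromosome 15, 18818869 to 19016206, plus strand), a type II cadherin known from brain, had 2.35 ± 0.744 CPM per kb.

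The remaining 4 genes lay below 1 CPM per kb on average. Cdh13 (gene ID 12554; chromosome 8, 118140017 to 119324929, plus strand), the lipid-anchored T-cadherin, had 0.759 ± 0.42 CPM per kb. Cdh4 (gene ID 12561; chromosome 2, 179442423 to 179899377, plus strand), the type I cadherin first known from retina, had 0.393 ± 0.176 CPM per kb. Cdh3 (gene ID 12560; chromosome 8, 106510852 to 106556911, plus strand), the P-cadherin of basal epithelial layers, lies beside Cdh1 on the same strand and had 0.353 ± 0.428 CPM per kb. Cdh8 (gene ID 12564; chromosome 8, 99024471 to 99417666, minus strand), a type II cadherin of subsets of neurons, was the lowest at 0.0996 ± 0.0464 CPM per kb.

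**Figure D1:**
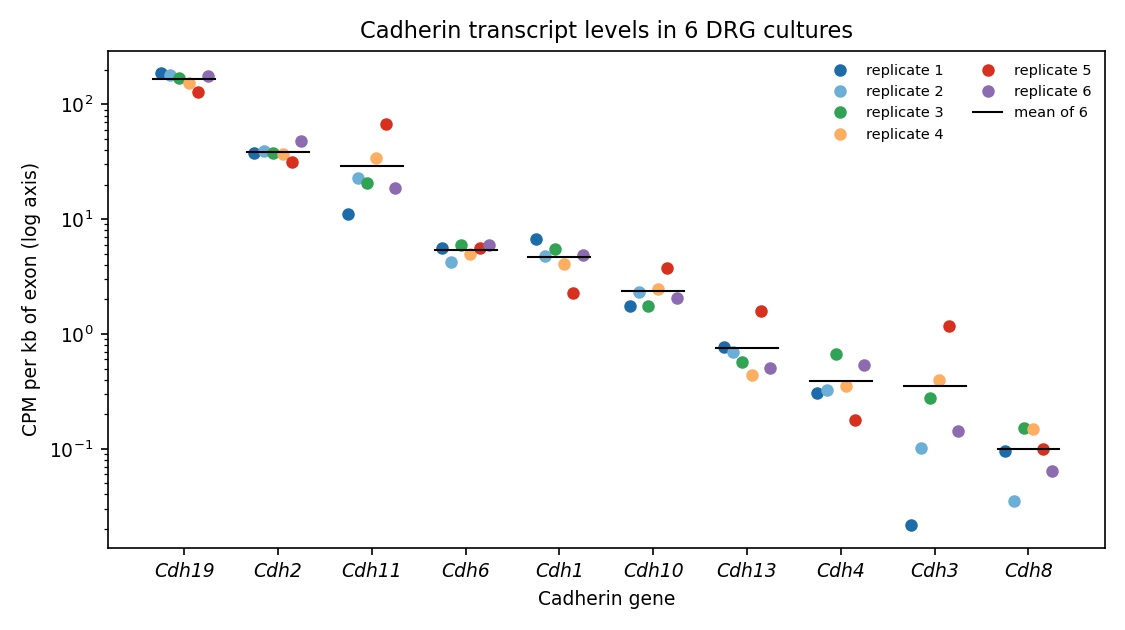
Level of each of the 10 cadherin genes in the 6 cultures, as CPM per kb of exon on a log axis; each point is 1 culture, coloured by replicate, and the bar is the mean of 6. Cdh19 lies highest in every culture, and the points of Cdh11 and Cdh3 are spread most widely, with replicate 5 at the top of both.

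Neighbours in this order were compared within each library, as the difference of log2(CPM per kb + 0.1), by an exact two-sided sign-flip permutation test with Benjamini-Hochberg adjustment over all 45 pairs of members. With 6 libraries the smallest p this test can give is 0.0312. Of the 45 pairs, 39 passed an adjusted p of 0.05, but only 3 of the 9 neighbouring pairs did. Cdh19 exceeded Cdh2 in 6 of 6 libraries by 2.11 ± 0.15 on the log2 scale (adjusted exact p = 0.0361). Cdh11 exceeded Cdh6 in 6 of 6 by 2.19 ± 0.92, and Cdh10 exceeded Cdh13 in 6 of 6 by 1.58 ± 0.42, each with the same adjusted exact p of 0.0361. With a pseudocount of 1 the last difference was 0.93 and still passed. These 3 pairs cut the order into 4 steps: Cdh19, then Cdh2 with Cdh11, then Cdh6, Cdh1 and Cdh10, then Cdh13, Cdh4, Cdh3 and Cdh8. The steps are a description only. All passing pairs stood at the smallest possible p, so their adjusted value depends on which pairs form the family.

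Within the steps no neighbouring pair passed the threshold, which does not show that their levels were equal. Cdh2 exceeded Cdh11 in 5 of 6 libraries, by 0.63 ± 1.01 on the log2 scale of CPM per kb (exact p = 0.219, adjusted 0.229). The exception was replicate 5, where the ratio of Cdh2 to Cdh11 in CPM per kb was 0.472, against 1.08 to 3.40 in the other libraries. Cdh6 and Cdh1 differed by 0.26 ± 0.55 (higher in 4 of 6, adjusted exact p = 0.352), and Cdh1 and Cdh10 by 0.94 ± 0.91 (5 of 6, adjusted exact p = 0.105). Among the lowest genes, Cdh13 exceeded Cdh4 by 0.77 ± 1.04 (4 of 6, adjusted exact p = 0.167), Cdh4 exceeded Cdh3 by 0.48 ± 1.46 (4 of 6, adjusted exact p = 0.438), and Cdh3 exceeded Cdh8 by 0.78 ± 1.09 (5 of 6, adjusted exact p = 0.167). The sizes within steps depended on single libraries. Without replicate 5 they were 0.97 for Cdh2 over Cdh11, 0.05 for Cdh6 over Cdh1, 0.40 for Cdh13 over Cdh4, 1.02 for Cdh4 over Cdh3 and 0.40 for Cdh3 over Cdh8. Without replicate 1, Cdh2 exceeded Cdh11 by 0.41 and Cdh4 exceeded Cdh3 by 0.23, and the latter was 0.30 without replicate 6. With a pseudocount of 1, the differences were 0.32 for Cdh13 over Cdh4, 0.08 for Cdh4 over Cdh3 and 0.25 for Cdh3 over Cdh8. Genes of a step that were not neighbours could still differ, as Cdh13 and Cdh4 did from Cdh8 and Cdh13 from Cdh3, each in 6 of 6 libraries with an adjusted exact p of 0.0361. Likewise Cdh6 exceeded Cdh10 in 6 of 6 libraries by 1.20 ± 0.47 (adjusted exact p = 0.0361).

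Among the type II genes, Cdh19 had 1450 CPM in replicate 1, 1402 in replicate 2, 1324 in replicate 3, 1201 in replicate 4, 999.1 in replicate 5 and 1388 in replicate 6. Replicate 5 was the lowest and replicate 4 the next lowest, and the highest library stood 1.45-fold above the lowest. Cdh11 had 68.5, 142.4, 128.4, 210.6, 418.4 and 116.6 CPM in replicates 1 to 6. Its order was the reverse at both ends, with replicate 5 highest and replicate 1 lowest, 6.11-fold apart. Without replicate 5 the mean of Cdh11 was 133.3 ± 51.4 CPM in place of 180.8 ± 125 CPM, and the fold between its ends was 3.07; without replicate 1 that fold was 3.59.

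As a share of the summed cadherin CPM per kb, Cdh19 took 74.5% in replicate 1 and 53.1% in replicate 5. Cdh11 took 4.40% in replicate 1 and 27.8% in replicate 5. The ratio of Cdh19 to Cdh11 in CPM per kb was accordingly 16.9 in replicate 1 and 1.91 in replicate 5, and between 4.56 and 9.52 in the other 4 libraries. All type II genes together nevertheless held 79.2% to 84.7% of the sum, since the lower share of Cdh19 in replicate 5 was matched by the higher share of Cdh11. The summed CPM of the 10 genes differed little, at 1962 ± 95.7 CPM.

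**Figure D2:**
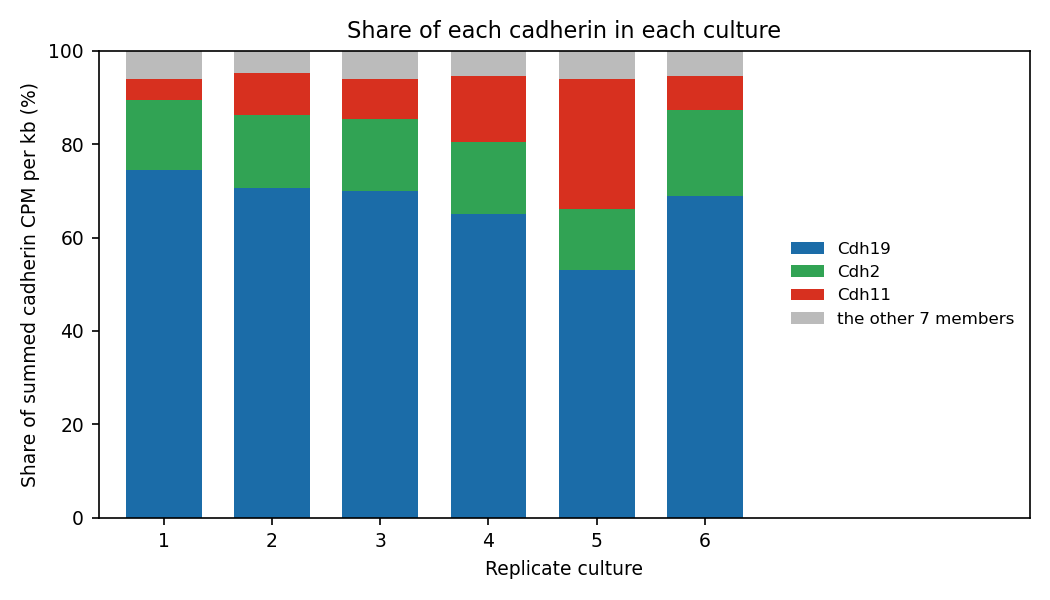
Stacked bars give the share (%) of the summed CPM per kb of the 10 cadherins taken by Cdh19, Cdh2, Cdh11 and the other 7 members in each of the 6 cultures. Cdh11 takes its largest share, 27.8%, in replicate 5, where Cdh19 takes its smallest, 53.1%, while the other 7 members together stay between 4.87% and 6.10%.

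Cdh6 had a lowest value of 47.6 CPM, a median of 62.9 CPM and a highest value of 68.0 CPM. Replicate 2 was its lowest library and replicate 6 its highest, 1.43-fold apart, and replicate 5 was in neither place. The range was close to the 1.45-fold of Cdh19 with all 6 libraries, and wider than the 1.21-fold of Cdh19 without replicate 5. Cdh10 had 9.84, 13.0, 9.83, 13.8, 21.0 and 11.4 CPM in replicates 1 to 6. Replicate 5 lay above the others: the ends were 2.13-fold apart with it and 1.40-fold apart without it. Cdh8 had 20, 7, 30, 27, 19 and 12 counts in replicates 1 to 6, or 0.319 to 1.38 CPM. The 95% counting interval (exact Poisson) of its lowest library, 0.128 to 0.657 CPM, did not meet that of its highest, 0.934 to 1.98 CPM. Replicate 5 was in the middle for Cdh8, and the ends were 4.34-fold apart, or 2.41-fold without replicate 2. An overlapping pseudogene on the same strand, Gm15681, held 230 counts over the 6 libraries against 115 for Cdh8, so the level of Cdh8 is uncertain.

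Promoter windows from the RefSeq table (GRCm38.p6, 250 bases before to 50 after a start site) were found for 3 members, Cdh6, Cdh8 and Cdh10, and 7 were not in the table. Those of Cdh6 and Cdh10 are shown because both genes are type II cadherins on chromosome 15 with unlike patterns over the cultures, Cdh10 highest in replicate 5 and Cdh6 not. They are written 5′ to 3′ on the strand of the gene, in lower case; both start sites lie inside the annotated span of the gene. Capitals mark a match to AACAAAG, the core bound by SOX transcription factors such as the glial factor Sox10, which was searched on both strands after the sequences had been read.
Cdh6, chr15:13173626-13173925, minus strand: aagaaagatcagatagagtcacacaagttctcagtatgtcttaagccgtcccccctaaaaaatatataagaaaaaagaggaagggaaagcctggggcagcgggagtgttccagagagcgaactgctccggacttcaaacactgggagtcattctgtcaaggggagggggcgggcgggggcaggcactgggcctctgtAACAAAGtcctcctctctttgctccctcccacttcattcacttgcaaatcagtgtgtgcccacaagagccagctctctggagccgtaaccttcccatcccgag
Cdh10, chr15:18820079-18820378, plus strand: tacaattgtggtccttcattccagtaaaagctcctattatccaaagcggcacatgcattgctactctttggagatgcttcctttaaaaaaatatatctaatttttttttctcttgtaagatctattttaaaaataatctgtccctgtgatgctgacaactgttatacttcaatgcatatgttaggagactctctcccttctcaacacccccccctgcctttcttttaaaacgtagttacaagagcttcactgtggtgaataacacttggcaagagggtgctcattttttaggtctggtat
The Cdh6 window held 1 match, 53 bases before the start site, and the windows of Cdh10 and Cdh8 held none. Of 32851 promoter windows of this length, 5.85% held the motif on either strand. The hexamer CACCTG, an E-box bound by the Snail and Zeb repressors, was absent from all 3 windows and present in 20.2% of all windows. G and C made up 53.0% of the Cdh6 window and 37.7% of the Cdh10 window, against a median of 52.7% over all windows. A match describes these letters and does not show binding.

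The type I genes also differed from each other in which libraries were highest and lowest. Cdh2 had 373.5, 394.7, 374.4, 365.0, 316.4 and 478.9 CPM in replicates 1 to 6. Replicate 6 was highest and replicate 5 lowest, 1.51-fold apart, and the ratio of Cdh19 to Cdh2 in CPM per kb kept to 3.71 to 4.98. Cdh1 had 29.9, 21.0, 24.1, 18.0, 10.0 and 21.5 CPM. Replicate 1 was highest and replicate 5 lowest, 2.98-fold apart, against 1.66-fold between the ends without replicate 5. The ratio of Cdh2 to Cdh1 in CPM per kb ran from 5.56 in replicate 1 to 14.0 in replicate 5.

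Cdh1 was measured where markers of epithelium were almost absent. The 8 epithelial markers, among them Epcam, Krt8, Krt18 and Grhl2, summed to 0.0455 to 0.430 CPM. Of these 8 genes, 7 had at most 3 counts in any library, Krt5 had 0 counts in all 6, and none passed the low-count filter. Cdh1, with 210 to 687 counts per library, was thus detected at a level far above every gene of that list.

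Cdh3 had 2, 9, 24, 32, 100 and 12 counts in replicates 1 to 6, or 0.0871, 0.410, 1.11, 1.59, 4.78 and 0.574 CPM. Replicate 5 was highest and replicate 1 lowest. Their ratio in CPM was 54.9, with an exact 95% counting interval of 14.8 to 459.3, and the count of 2 in replicate 1 lies under the floor of 3. Replicate 5 carried most of the mean of Cdh3: without that library the mean was 0.755 ± 0.597 CPM in place of 1.43 ± 1.73 CPM. The ends of Cdh3 were 18.3-fold apart without replicate 5 and 11.7-fold apart without replicate 1. The neighbouring genes Cdh1 and Cdh3 had replicates 1 and 5 at opposite ends, while replicates 3, 6 and 2 stood in the same order in both. The ratio of Cdh1 to Cdh3 in CPM per kb was 1.91 in replicate 5 and 10.3 to 312.9 in the others.

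Cdh4 had 2.13, 2.28, 4.66, 2.49, 1.24 and 3.78 CPM in replicates 1 to 6, with replicate 3 highest and replicate 5 lowest. The ends of Cdh4 were 3.75-fold apart, or 2.19-fold without replicate 5. Cdh13 had 3.18, 2.87, 2.35, 1.84, 6.59 and 2.10 CPM. Replicate 5 stood alone at the top for Cdh13, and the ends were 3.58-fold apart with it and 1.72-fold apart without it.

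Whether the cultures differed by more than counting noise was tested for each gene with a chi-square test of its 6 counts, adjusted over all 14998 genes kept by the low-count filter. The filter kept 8 of the 10 members. Cdh3 and Cdh8 were left out, because with 1 group it asked for a minimum level in every library. All 8 members tested varied beyond counting noise, the largest adjusted p being 1.4e-10 for Cdh4. Of all genes tested, 76.3% did so, and the count of members is not far from that background. With no low-count filter 10 of 10 members were called, the weakest being Cdh8 with an adjusted p of 0.00408, against 50.2% of 26854 genes.

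A second test asked whether a gene varied more than genes of like abundance, from its residual quasi-dispersion in an edgeR fit over its trend. No gene passed at an adjusted p of 0.05, so 0% were called, and 809 genes (5.39%) had an unadjusted p under 0.05. Cdh11 was the only member among these, with an unadjusted p of 0.00777 and an adjusted p of 0.844. The test had little power with 6 libraries. Even Pdgfra, at 4.09 to 111.6 CPM, had an unadjusted p of 0.00241 and an adjusted p of 0.844 in it. The lack of calls therefore does not show that the members varied like other genes. The size of the spread is therefore given as a description. The SD of log2(CPM + 0.5) was 0.88 for Cdh11, at the 97.5th percentile of the kept genes. It was 0.57 for Cdh13, 0.55 for Cdh4 and 0.52 for Cdh1, each above the 92nd percentile, and 0.39 for Cdh10. Cdh19, Cdh2 and Cdh6 had 0.20, 0.19 and 0.19, between the 58th and 61st percentile. The median over the 8 members was 0.46, against 0.16 over all kept genes. Much of this spread came with replicate 5. Without it the SD was 0.58 for Cdh11 (96.0th percentile), 0.43 for Cdh4 (91.5th), 0.27 for Cdh1 and 0.27 for Cdh13 (both at the 78th), 0.21 for Cdh10 and 0.21 for Cdh6 (both at the 71st), 0.16 for Cdh2 (57th) and 0.11 for Cdh19 (33rd). The median was then 0.24 over the 8 members and 0.14 over all kept genes.

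The members split by where replicate 5 stood. It held the highest level of 4 members (Cdh3, Cdh10, Cdh11 and Cdh13), the lowest of another 4 (Cdh1, Cdh2, Cdh4 and Cdh19) and an inner place for Cdh6 and Cdh8. Of all kept genes, replicate 5 held the highest value for 29.2% and the lowest for 26.2%. The counts of members are not far from that background. The split did not follow the subfamilies, since type I and type II genes were on both sides. Replicate 1 held the highest level of Cdh1 and Cdh19 and the lowest of Cdh3 and Cdh11, against 18.2% and 23.8% of all kept genes. Among the 8 kept members the closest pair of patterns was Cdh2 with Cdh19, with a root mean square difference of 0.14 in mean-centred log2(CPM + 0.5), and the farthest was Cdh1 with Cdh11, at 1.27.

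**Figure D3:**
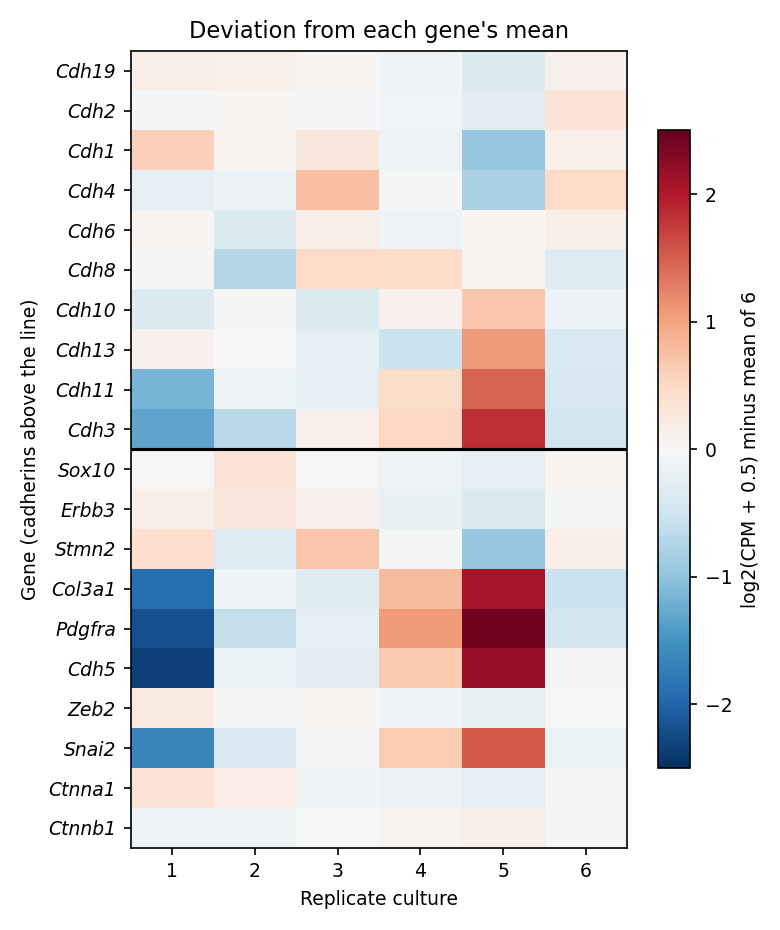
Each cell gives a gene's log2(CPM + 0.5) in 1 culture minus its mean over the 6 cultures, with the 10 cadherins above the line and 10 marker, junction and transcription factor genes below it; red is above the gene's mean and blue below. In replicate 5, Cdh11 and Cdh3 share the red of Col3a1, Pdgfra and Cdh5, and Cdh1 and Cdh4 share the blue of Stmn2. Stmn2 does not stand for all 8 neuron markers, of which 4 were lowest in replicate 5. Rbfox3, not drawn, had 11.9 CPM there against a mean of 11.5 CPM.

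Because cell types differ in their cadherins, the 8 kept members were set against the mean log2 level of the glial, fibroblast and neuron markers across the 6 libraries, in 24 relations with exact permutation p-values adjusted over all 24. None passed an adjusted p under 0.05; 8 had an unadjusted p under 0.05 for Pearson's r and 3 for Spearman's rho. The fibroblast markers were highest in replicate 5 for 6 of 7 genes and lowest in replicate 1 for 7 of 7. Over all kept genes, 29.2% were highest in replicate 5 and 23.8% were lowest in replicate 1. The mural markers, such as Acta2 and Pdgfrb, summed to 273.7 CPM in replicate 1 and 1541 CPM in replicate 5, and 5 of 6 were lowest in replicate 1. Macrophage markers summed to 14.0 and 132.4 CPM in these libraries, with 6 of 7 lowest in replicate 1, and endothelial markers to 8.45 and 121.5 CPM, with 3 of 7 lowest there. These 3 lists were thus high in the same library as the fibroblast markers, and a relation of a member with the fibroblast score cannot be told apart from one with them. The part of any of these cell types in the levels of the members was not tested.

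Cdh11 and the fibroblast score had r = 0.98 (exact permutation p = 0.00417, adjusted 0.05) and rho = 0.94 (exact permutation p = 0.0167, adjusted 0.20). Leaving out the libraries with the most distant scores, replicates 1 and 5, gave r = 0.94. The 6 libraries stood in the same order for Cdh11 as for the fibroblast collagen Col3a1, from replicate 5 through 4, 2, 3 and 6 to 1. Cdh19 ran the opposite way, with r = −0.93 (exact permutation p = 0.00278, adjusted 0.05), rho = −0.94 (exact permutation p = 0.0167, adjusted 0.20) and r = −0.91 without replicates 1 and 5. Cdh1 also had a negative relation, with r = −0.94 (exact permutation p = 0.00694, adjusted 0.0533), rho = −0.83 (exact permutation p = 0.0583, adjusted 0.233) and r = −0.85 without those libraries.

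Of the 7 glial markers, 5 were lowest in replicate 5, as were 26.2% of all kept genes, but Ngfr was lowest in replicate 6 and Gfra3 in replicate 2. Relations with the glial score rested on fewer libraries. Cdh19 had r = 0.94 (exact permutation p = 0.0111, adjusted 0.0533) and rho = 0.89 (exact permutation p = 0.0333, adjusted 0.233) with it, but r = 0.15 without replicates 4 and 5. For Cdh1 these values were r = 0.95 (exact permutation p = 0.0111, adjusted 0.0533) and rho = 0.66 (exact permutation p = 0.175, adjusted 0.35), and r = 0.39 without replicates 4 and 5. The negative relations of Cdh11 and Cdh10 with the glial score, r = −0.89 and −0.90, also went to −0.09 and −0.02 without replicates 4 and 5, so all 4 rest on those libraries. With the fibroblast score, Cdh10 had r = 0.85 (exact permutation p = 0.0431, adjusted 0.129) and rho = 0.66 (exact permutation p = 0.175, adjusted 0.35), and r = 0.48 without replicates 1 and 5. With the neuron score, Cdh10 had r = −0.78 (exact permutation p = 0.0583, adjusted 0.156) and rho = −0.83 (exact permutation p = 0.0583, adjusted 0.233), and r = −0.80 without replicates 2 and 5. Cdh4 and the neuron score had r = 0.77 (exact permutation p = 0.0653, adjusted 0.157) and rho = 0.54 (exact permutation p = 0.297, adjusted 0.476), and r = 0.73 without replicates 2 and 5. Cdh13 stood high in replicate 5 but had r = 0.40 and rho = 0.03 with the fibroblast score (exact permutation p = 0.447 and p = 1, adjusted 0.537 and 1). Without replicates 1 and 5 this r was −0.65.

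**Figure D4:**
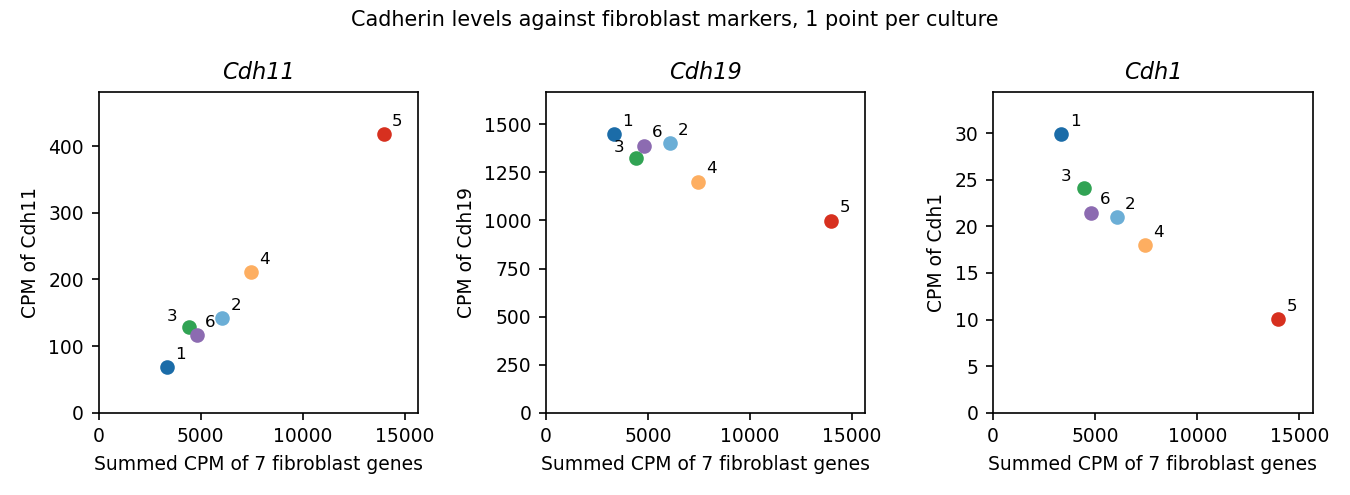
CPM of Cdh11, Cdh19 and Cdh1 against the summed CPM of 7 fibroblast marker genes, on linear axes from 0; each point is 1 culture with its replicate number. Cdh11 is highest and Cdh19 and Cdh1 are lowest in replicate 5, where the markers sum to 13977 CPM, and the other 5 cultures follow the same direction with less regularity for Cdh19.

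The genes most like the 3 members of largest spread were taken from 11936 genes with a mean of at least 5 CPM, by the root mean square difference of mean-centred log2(CPM + 0.5) over the 6 libraries. For Cdh11 they were Mical2 (0.09), Zfp385a (0.12) and Emilin1 (0.12), where Mical2 oxidises actin and Emilin1 is an elastic fibre glycoprotein. For Cdh13 they were Igfbp3 (0.19), a secreted binder of insulin-like growth factors, Trabd2b (0.23) and Steap3 (0.23). For Cdh4 they were Depdc7 (0.13), Slitrk1 (0.15) and Chd5 (0.16), of which Slitrk1 is a neuronal membrane protein and Chd5 a chromatin remodeller. Igfbp3 had 285.0 CPM in replicate 5 and 116.3 to 127.3 CPM in the other 5 libraries. It shared the high value in replicate 5 with Cdh13, which differed more among the other 5, at 1.84 to 3.18 CPM.

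Of the 9 other classical and type II cadherin genes, 3 passed the low-count filter, and all 3 varied beyond counting noise, as 76.3% of all tested genes did. Cdh5, the cadherin of endothelium and also a gene of the endothelial list, had 2.79, 14.2, 13.1, 25.6, 75.3 and 15.8 CPM in replicates 1 to 6. Replicate 5 was highest and replicate 1 lowest, as for Cdh11. Cdh20 had 3.54 to 11.4 CPM and was lowest in replicate 5, and Cdh24 had 2.74 to 5.21 CPM and was highest there. The other 6 genes of this list had mean levels of at most 1.08 CPM, and Cdh7 had at most 1 count in any library.

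The catenins that bind the tails of these cadherins were present in every culture. Of 9 genes 8 passed the filter and 8 of 8 varied beyond counting noise, against 76.3% of all tested genes, while their summed level kept to 2554 to 2897 CPM. Ctnna1 (alpha-catenin) had 261.1 ± 43.0 CPM per kb, Ctnnb1 (beta-catenin) 205.4 ± 16.4 CPM per kb and Ctnnd1, the main delta-catenin, 28.1 ± 1.31 CPM per kb. The low value of Ctnnd1 depends on its combined exon length. Before division by that length the means were 1055, 744.3 and 592.1 CPM. Ctnna1 put the libraries in the order of Cdh19, highest in replicate 1 at 1342 CPM and lowest in replicate 5 at 878.4 CPM. Ctnnb1 had 675.5 to 831.3 CPM and was highest in replicate 5. Jup (plakoglobin) stood at 18.4 ± 1.77 CPM per kb, and Ctnna2, the neural alpha-catenin, at 16.0 ± 4.18 CPM per kb. All 7 junction linkers (vinculin, afadin, 3 nectins, Plekha7 and Lima1) passed the filter and varied beyond counting noise, again against 76.3% of all tested genes. Of the 7, 5 were highest in replicate 5, as were 29.2% of all kept genes.

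Transcription factors known to repress Cdh1 fell into 2 patterns. Zeb1 and Zeb2 were highest in replicate 1, as Cdh1 was, Zeb2 having 1323 CPM there and 986.8 CPM in replicate 5. Snai1, Snai2, Twist1 and Twist2 were all highest in replicate 5 and lowest in replicate 1, where Cdh1 had its lowest and highest level. Over all kept genes, 29.2% were highest in replicate 5. Replicate 1 held the lowest value for 23.8% of them and the highest for 18.2%. Snai2 had 1.96, 5.37, 6.97, 11.4, 21.5 and 6.31 CPM in replicates 1 to 6, the same order of libraries as Cdh3. Of these 6 genes 4 passed the filter and 4 of 4 varied beyond counting noise, a count that the 76.3% of all tested genes makes uninformative. Twist1 and Twist2 were left out by the filter. The fibroblast markers had the same extremes, with 6 of 7 highest in replicate 5 and 7 of 7 lowest in replicate 1. Whether any of these factors acted on Cdh1 was not tested.

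Of 5 genes for proteases that process cadherins, 4 varied beyond counting noise, near the 76.3% of all tested genes. Adam10, which sheds the extracellular part, had 1318 CPM in replicate 1 and 862.6 CPM in replicate 5, in the same order of libraries as Cdh19. Furin, which removes the propeptide of classical cadherins, had 188.2 ± 19.1 CPM.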

How the data were processed

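Poly-A RNA of 6 cultures was sequenced. Per the submitters' processing notes, the tools included bcl2fastq 2.20.0.422, cutadapt 2.5, STAR 2.7.2b and featureCounts 1.6.4 with the GRCm38.p6 build. The table deposited by the authors holds estimated counts per gene with no scaling; 13.4% to 14.7% of its values per library are not whole. Such fractions occurred for Cdh11 in 6 libraries, Cdh2 in 4 and Cdh19 in 2. The strand setting and the handling of reads with several matches are not given in the sources used here. Exon lengths (base pairs) and coordinates are those the authors deposited.

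Counts were rounded for tests. CPM used library totals, and tests of spread used TMM factors and filterByExpr of edgeR 4.0.16 in R 4.3.3. Exact permutation tests and intervals used SciPy 1.17.1. Adjusted p-values are Benjamini-Hochberg. Scripts were tested on simulated data. No 2 libraries agreed within counting noise: the median chi-square over genes was 2.01 to 7.06 for each pair, against 0.455 for noise. Intervals cover counting error only. The members and lists were chosen with earlier results of these data known. The named genes were the members, the genes of these lists and, for the 3 kept members of largest spread, the 3 genes of nearest pattern.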

Additional observations from a re-analysis of the deposited data

Results flagged for a closer look

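Of 37 gene levels examined, 7 had 1 culture standing apart: its gap to the nearest culture, divided by the range of the 6 cultures, exceeded Dixon's critical value of 0.625. Chance flags about 1 in 20, or 1.85 of 37. The culture was replicate 5 for 6 of the 7. Over all 14998 kept genes, 6.98% stood apart in this way, 3.91% with replicate 5 as the culture. Among the members these were Cdh13 (gap over range 0.719), Cdh3 (0.679) and Cdh10 (0.644), each high in replicate 5. Cdh11, the member of largest spread among those kept by the low-count filter, had 0.594 in replicate 5, under the critical value. Outside the members, Afdn (0.819), Cdh5 (0.685) and Nectin1 (0.661) stood high in replicate 5, and Ctnnd1 (0.786) stood low in replicate 2, at 536.7 CPM against 595.5 to 611.5 CPM in the other cultures.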

How the results depend on the processing

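None of the 273 values computed under alternative settings reversed in direction, and where a test was run again its call was the same. The correlations among them were those of Cdh1, Cdh10, Cdh11 and Cdh19 with the glial and fibroblast scores. Outside these values, some r changed sign without the 2 libraries of most distant score. With the glial score r went from 0.62 to −0.86 for Cdh2, 0.69 to −0.54 for Cdh4 and −0.70 to 0.79 for Cdh13. It went from 0.40 to −0.65 for Cdh13 with the fibroblast score. With the neuron score r also changed sign for Cdh2 and Cdh13. Means of CPM, and differences or correlations with 1 culture left out, are values with no test. The SDs without replicate 5, chosen after seeing the data, were over 1.5 times lower for Cdh1, Cdh10, Cdh11, Cdh13 and Cdh19. The number of genes varying beyond counting noise was 11535 with library totals, 11436 with DESeq2 1.42.0 size factors, 13488 without a filter and 10118 to 11253 with 1 culture left out. The 8 members called with all 6 cultures remained 8 under these settings apart from the unfiltered table, where 10 were called; without replicate 2 Cdh8 entered the test and had an adjusted p of 0.0742. A pseudocount of 1 and TMM-scaled CPM each left 39 pairs past the threshold. With 5 cultures the sign-flip test cannot go below 0.0625, so those differences have values only. Chosen after seeing the data, the means without replicates 1 and 5 were 149.5 CPM for Cdh11, 1329 CPM for Cdh19 and 0.921 CPM for Cdh3. Low counts limit Cdh3 and Cdh8, with at most 100 and 30 counts in a library. No paired analysis was possible because the study has 1 group, so that no samples pair across groups; the sign-flip tests pair genes within a library.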
